A study of Mus musculus with 7 samples.

Results

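The genes described here are 52 genes of the G2 and M phases of the cell cycle, given as a list of symbols, and all 52 were found among the 21862 genes of the deposited count matrix. They were followed across the cell states of the embryonic mouse dorsal forebrain, the tissue that forms the cerebral cortex. Cells came from CD-1 embryos, an outbred strain, at 6 stages, the earliest ones E10.5 and E12.5 (embryonic days), the middle ones E14.5 and E15.5 and the latest E16.5 and E18.5. The labels name no transgene, deletion or treatment, and the stages are set apart by age. Each stage was 1 sample except E14.5, which had replicates 1 and 2, so stage and sample cannot be told apart at the other stages, and values listed in order of stage give the E14.5 replicates one after the other. The 7 samples are not tied to animals: the labels do not say how many embryos or litters each held. Every p-value below therefore rests on the scatter that the fit leaves between these samples. For slopes and their difference this is scatter around a straight line. For the class comparison it is how the class difference varies between samples, stages included. That scatter may be technical or hold changes with stage.

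A cell that has copied its DNA passes through G2 and then M phase, or mitosis, in which the chromosomes condense, attach to a spindle of microtubules and are pulled apart before the cell divides. The kinase Cdk1 with its B-type cyclins starts mitosis, aurora kinases and motor proteins build and correct the spindle, and the anaphase-promoting complex ends mitosis by marking proteins for destruction. In the developing cortex, apical progenitors (radial glia) divide at the ventricle, intermediate progenitors express the transcription factor Eomes and divide away from it, and projection neurons do not divide.

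Most of these genes share short promoter letters, which are shown for 7 members that recur in the results below. TTTGAA is the core of the cell cycle homology region, an element through which the DREAM and MuvB complexes act on many G2 and M genes, and CCAAT is the core of the element bound by the factor NF-Y. Sequences are from RefSeq (GRCm38.p6), 5′ to 3′ on the gene's strand, and end just before the start site. They cover up to 120 bases, with bases in an annotated exon left out. Capitals mark TTTGAA and CCAAT on either strand, so the reverse complements TTCAAA and ATTGG are also in capitals.
Cdc20 (chr4:118437353-118437463, minus strand): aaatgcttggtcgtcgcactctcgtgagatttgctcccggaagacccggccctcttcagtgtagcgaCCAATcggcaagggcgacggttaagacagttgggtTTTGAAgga
Cdk1 (chr10:69352939-69353032, minus strand): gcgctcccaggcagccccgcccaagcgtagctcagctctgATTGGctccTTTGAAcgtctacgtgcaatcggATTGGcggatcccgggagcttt
Top2a (chr11:99024190-99024309, minus strand): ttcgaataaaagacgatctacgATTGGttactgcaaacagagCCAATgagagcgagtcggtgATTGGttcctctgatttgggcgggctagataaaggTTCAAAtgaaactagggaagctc
Hmgb2 (chr8:57511723-57511842, plus strand): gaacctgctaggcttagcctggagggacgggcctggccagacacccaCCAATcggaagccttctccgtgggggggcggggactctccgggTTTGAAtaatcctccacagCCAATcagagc
Ckap2 (chr8:22185820-22185939, minus strand): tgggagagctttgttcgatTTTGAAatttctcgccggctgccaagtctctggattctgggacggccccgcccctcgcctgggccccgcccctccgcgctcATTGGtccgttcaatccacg
Ccnb2 (chr9:70421555-70421674, minus strand): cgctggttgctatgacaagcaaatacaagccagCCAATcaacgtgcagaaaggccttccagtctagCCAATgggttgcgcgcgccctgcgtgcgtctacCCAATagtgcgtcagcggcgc
Mki67 (chr7:135716380-135716499, minus strand): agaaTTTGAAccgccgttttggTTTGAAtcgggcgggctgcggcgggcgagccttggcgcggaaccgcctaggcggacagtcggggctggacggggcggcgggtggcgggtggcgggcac
Top2a and Ccnb2 each held 3 CCAAT elements in the bases shown, Ccnb2 held no TTTGAA there, and Mki67 held 2 TTTGAA and no CCAAT.

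Promoter windows of 300 bases, from 250 before to 50 after the start, were listed for 46 of the 52 members and for 27025 genes in all. TTTGAA, searched on either strand, occurred in 33 of the 46 members, or 71.7%, against 20.2% of all genes. At least 1 CCAAT occurred in 76.1% of the members against 41.1% of all genes, and at least 2 in 60.9% against 13.3%. TTTGAA with at least 2 CCAAT in 1 window was found in 22 members, or 47.8%, against 2.42% of all genes. GGGCGG, a GC box, was in 73.9% against 38.2%, and TTTAAA in 23.9% against 14.9%. Matches of different motifs were counted separately and may share letters, and a match describes the sequence only. Cks2, Birc5, Tacc3, Nusap1, Psrc1, Nek2, Gtse1, Gas2l3, Cenpe, Nuf2, Bub1, Cbx5 and G2e3 had no TTTGAA in the window. Cdc25c, Aurkb, Tpx2, Dlgap5, Smc4 and Cdca2 had no listed window.

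Libraries were made by Drop-seq, a droplet method that tags mRNA with a cell barcode and with a unique molecular identifier (UMI), so that molecules are counted once. The matrix held 27776936 UMIs over 10261 cells in 12 libraries, with 387 to 3235 cells, 1519473 to 6638760 UMIs and a median of 1645 to 3352 UMIs per cell in a sample. The median share of mitochondrial UMIs was 5.41%, 3.83%, 2.25%, 2.80%, 6.80%, 7.22% and 7.53% in order of stage, and its part in any change with stage was not tested. Cells carried 1 of 19 deposited cluster numbers with no names, and names were given by marker genes. By that measure clusters 1, 3, 6 and 10 were apical progenitor-like and clusters 4 and 7 intermediate progenitor-like. Clusters 2, 5, 9 and 11 were projection neuron-like. Cluster 12, in which 25 of 38 apical markers had at least 2-fold the level of all other cells, stayed unnamed, because Olig1 and Olig2 of the oligodendrocyte lineage stood among its 10 leading genes beside Tnc of its own list. It was pooled with clusters 1, 3, 6 and 10 in the apical class, and values without it are given for the shares and the counts of called genes. Without cluster 12, the mitosis-rich cluster 10 would make up 80.0% of the 25 apical cells at E16.5 and 53.1% of the 32 at E18.5. The apical class held 3403 cells, the intermediate class, clusters 4 and 7, held 1316, and the projection neurons held 2599. Because the clusters were made from gene expression that may include these 52 genes, differences between single clusters are described and not tested. The apical and intermediate classes are sets of these clusters, so the p-values of their comparisons carry the same limit, and values from classes set without cluster labels are given beside them.

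Among all cells, the 52 genes together made up 0.998% of UMIs. The share was 3.54% in cluster 10 and 2.90% in cluster 7, the highest among the 19 clusters. It was 2.03% in cluster 3, 1.81% in cluster 6, 1.11% in cluster 12, 0.629% in cluster 1 and 0.344% in cluster 4. Over samples with at least 20 cells, cluster 10 ranged from 3.13% to 3.90% and cluster 7 from 2.71% to 3.20%, so that the ranges overlapped. Cluster 3 ranged from 1.78% to 2.23%, below every sample of cluster 7 and overlapping cluster 6, which had 1.78% and 2.25% in its 2 samples. Cluster 1 ranged from 0.547% to 0.881% and cluster 4 from 0.258% to 0.438%, with no overlap between them. The 4 projection neuron-like clusters lay between 0.183% and 0.220%. Outside the cortical lineage, the share was 1.65% in cluster 14, which carried markers of the cortical hem, and 1.31% in the mesenchyme-like cluster 15.

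**Figure D1:**
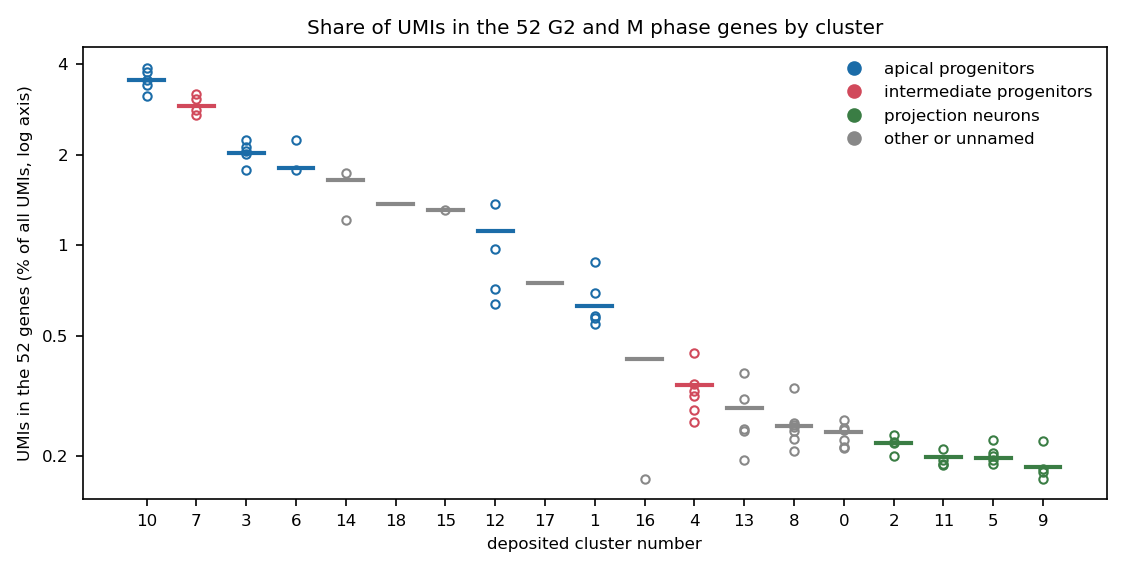
Share of all UMIs that fell in the 52 genes (percent, log axis) for each deposited cluster, with bars for the cells of all samples pooled and circles for samples of at least 20 cells, coloured by class (cluster 12 with the apical class). Clusters 10 and 7 stand highest at 3.54% and 2.90%, and the projection neuron-like clusters 2, 5, 9 and 11 lie near 0.2%.

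Cluster 10 had the highest level of 47 of the 52 members, and cluster 7 that of the other 5, which were Ndc80, Cbx5, Anp32e, Ctcf and G2e3. Ndc80 is a kinetochore subunit that binds microtubules, Cbx5 the heterochromatin protein HP1 alpha, Anp32e a histone chaperone, Ctcf the chromatin insulator factor and G2e3 a ubiquitin ligase. Levels are given as CPM (counts of a gene over all counts of the cells summed, scaled as usual for this unit). For Cdk1, pooled over samples, the level was 497 CPM in cluster 10, 369 in cluster 7, 270 in cluster 3, 199 in cluster 6, 54.7 in cluster 1 and 6.91 in cluster 4. For Top2a, the topoisomerase that untangles chromosomes, it was 2783 CPM in cluster 10, 2497 in cluster 7, 1797 in cluster 3, 232 in cluster 1 and 52.1 in cluster 4. Ctcf varied far less, from 549 CPM in cluster 7 and 476 in cluster 10 to 342 in cluster 1 and 323 in cluster 4.

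Clusters 10 and 3 were both apical progenitor-like. Of the 52 members, 50 were higher in cluster 10 than in cluster 3, 23 of them at least 2-fold, with a median fold of 1.89, and 42 were higher in each of the 4 samples that had both clusters. Gas2l3, a linker of actin and microtubules, was 4.01-fold and Gtse1, a microtubule-bound regulator of p53, 3.52-fold higher, the largest folds. Ube2c, the ubiquitin-conjugating enzyme of the anaphase-promoting complex, was 3.45-fold higher (1862 against 539 CPM), and Cdc20, the activator of that complex, 3.43-fold higher (591 against 172 CPM). Aurka, the aurora kinase of the spindle poles, was 3.35-fold higher, the tubulin gene Tubb4b 3.33-fold and the kinetochore gene Cenpf 3.04-fold. Other genes of mitosis stood lower, with Birc5 at 1.56-fold, Aurkb at 1.48-fold, the checkpoint gene Bub1 at 1.47-fold and Ndc80 at 1.27-fold. Top2a was 1.55-fold, Mki67 (the proliferation marker Ki-67) 1.64-fold and Hmgb2, a DNA-bending chromatin protein, 1.44-fold higher. Cks1b, a subunit that docks on cyclin-dependent kinases, was 1.26-fold higher, and Cbx5 and Ctcf stood at 0.863 and 0.929 times their level in cluster 3.

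Cluster 7, the cycling intermediate progenitor-like cells, had a lower level than cluster 10 for 47 of 52 members, with a median fold of 0.758, and 25 were lower in each of the 3 samples with both. Tubb4b stood at 0.418 and Ckap2, which stabilises spindle microtubules, at 0.468 times the level in cluster 10, the only members at least 2-fold lower. Cdc20 stood at 0.570, Mki67 at 0.882, Top2a at 0.897 and Hmgb2 at 0.933 times that level. Against cluster 4, the other intermediate progenitor-like cluster, cluster 7 was higher for all 52 members and at least 2-fold higher for 50, with a median fold of 27.2. Cluster 12 was lower than cluster 10 for all 52, at a median of 0.269 times its level, and at least 2-fold lower for 49.

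**Figure D2:**
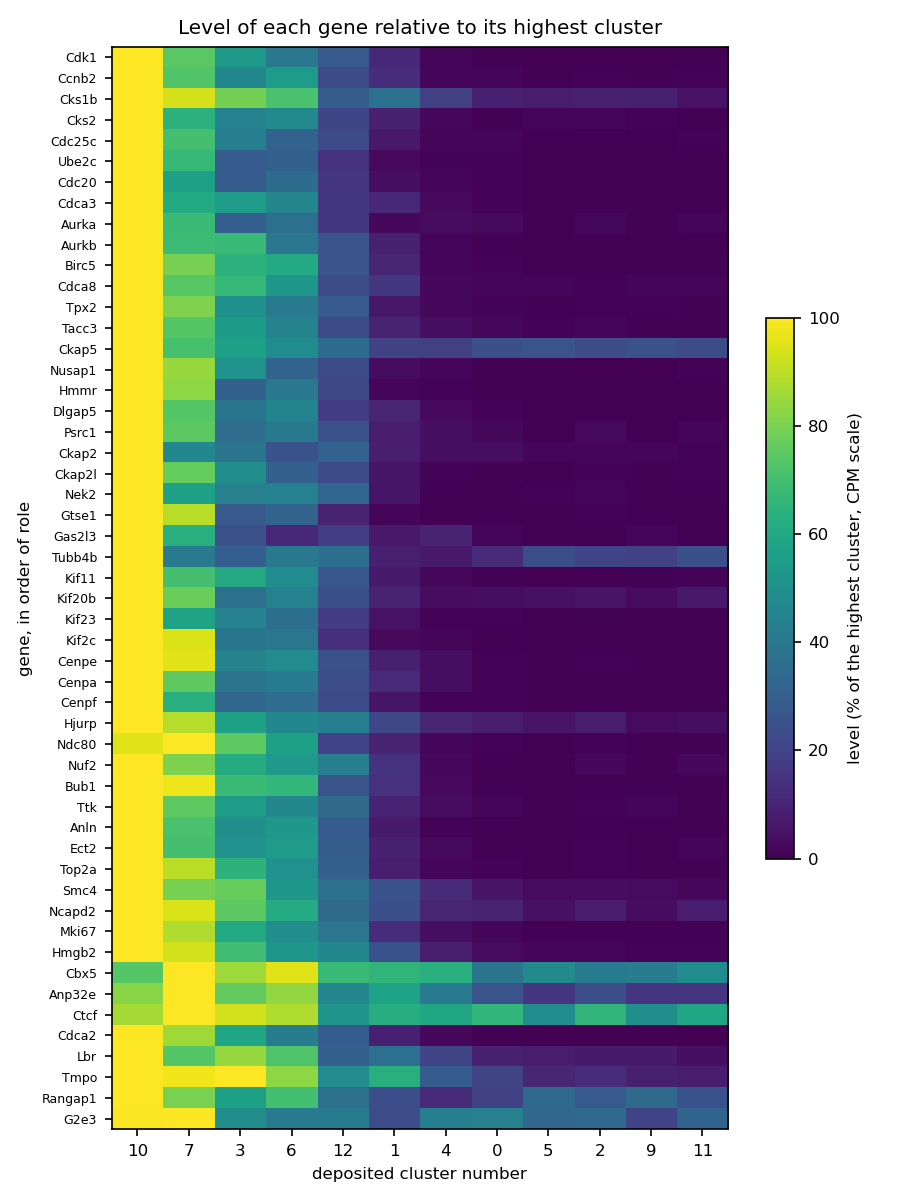
Level of each of the 52 genes (vertical, in order of role) in the 12 progenitor, neuron and unnamed cortical clusters drawn (horizontal), as a percentage of the gene's highest cluster on the CPM scale. Columns 10 and 7 are filled for nearly all genes. Ctcf, Cbx5, G2e3, Rangap1, Ckap5, Tubb4b and Anp32e are among those that stay visible in the neuron columns.

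Projection neurons gave the level in cells that do not divide. All 52 members were lower there than in the apical class, and the median member stood at 1.64% of its apical level. For 40 members the level was below 10%. The lowest were Cdca2, a phosphatase regulator of mitotic chromatin, at 0.344%, Cdk1 at 0.377% and Aurkb, the kinase of the chromosomal passenger complex, at 0.381%. Ctcf kept 69.7% of its apical level (306 against 438 CPM), G2e3 61.6%, Cbx5 55.9%, Tubb4b 52.9% and Rangap1, a protein of nuclear transport, 52.3%. Cbx5, Ctcf, Anp32e and Ckap5 made up 23.3%, 15.2%, 14.5% and 11.8% of the neurons' UMIs in the 52 genes. The median was 1.59% for members with TTTGAA in the promoter window and 1.95% for those without. With cluster 12 left out of the apical class all 52 were still lower in neurons, 41 below 10%, with a median of 1.58%.

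In the apical class, the share of UMIs in the 52 genes was, in order of stage, 1.76%, 1.95%, 1.77%, 1.68%, 1.96%, 2.19% and 1.72% (SD 0.178, n = 7). In the intermediate class it was 2.47%, 2.03%, 0.985%, 0.714%, 1.45%, 0.717% and 1.60% in the same order (SD 0.669, n = 7). It was thus higher than in the apical class at E10.5 and E12.5 and lower in the 5 samples from E14.5 on. Projection neurons had a median of 0.201% (range 0.184% to 0.220% over 6 samples). Without cluster 12 the apical share was 1.76%, 1.95%, 1.80%, 1.76%, 2.59%, 3.74% and 3.61% in order of stage, above every value with cluster 12 at the last 3 stages, where cluster 10 makes up more of the class. Single cells of the intermediate class fell into unequal parts, with a median of 0.525% and a 90th percentile of 3.61%, and those of the apical class had a median of 1.44% and a 90th percentile of 3.47%.

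The make-up of the intermediate class moved with its share. In order of stage, cluster 7 held 75.8%, 56.3%, 19.7%, 13.9%, 35.3%, 12.9% and 34.8% of its cells. The E10.5 value rests on 33 cells, among which the summed level of 12 Cajal-Retzius markers was 1357 CPM, against 35.4 to 160 CPM in the other samples (Trp73 and Car10 were at 0). The part of such cells in the result was not tested. The 52 genes took 2.71% of cluster 7's UMIs at E10.5, 2.81% at E12.5, 3.07% in E14.5 replicate 1 and 3.20% at E15.5, and within cluster 4 it was between 0.258% and 0.438% in 6 samples. In the apical class, cluster 10 held 0.146%, 13.4%, 16.4%, 20.6%, 29.3%, 33.3% and 8.81% of cells in order of stage. Cluster 6 held 90.8% at E10.5, and cluster 12 held 58.3% at E16.5 and 83.4% at E18.5. Oligodendrocyte lineage markers, 10 of 10 with a count, summed to between 18.5 and 1298 CPM in the apical class, highest at E18.5.

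**Figure D3:**
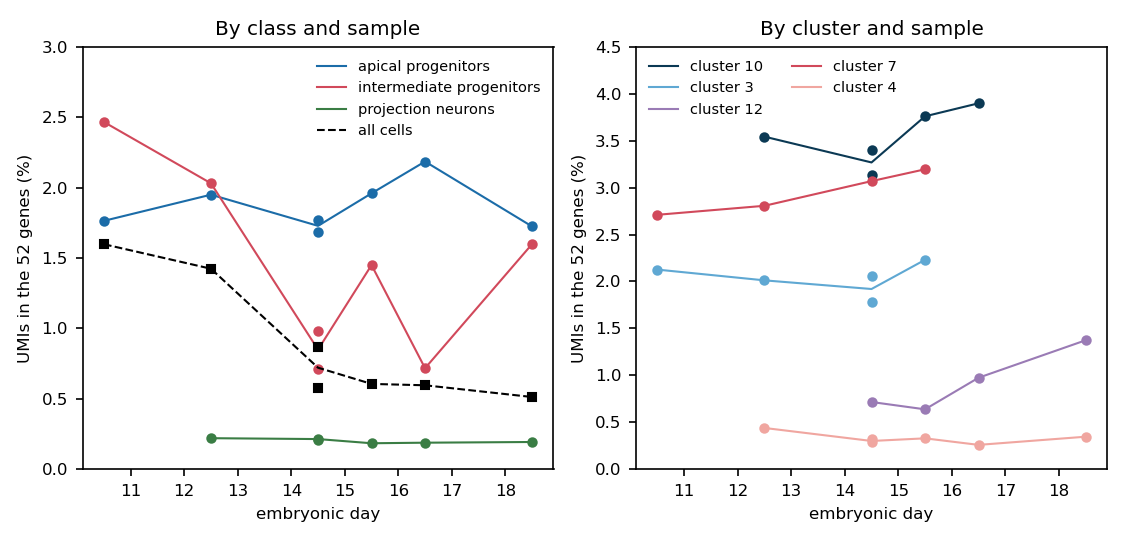
Share of UMIs in the 52 genes (percent) against embryonic day, by class and over all cells in one panel and for 5 clusters in the other, each point 1 sample with at least 20 cells and lines through the mean of the E14.5 replicates. The apical class stays between 1.68% and 2.19%, the intermediate class spans 0.714% to 2.47%, and cluster 4 stays below every other cluster drawn.

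To compare cells at equal depth, each cell was thinned to 1000 UMIs and scored for a UMI of Mki67 or Top2a. In the apical class 63.1% of 2822 cells had one (95% Clopper-Pearson interval 61.3% to 64.9%, counting error only), with 581 shallower cells left out and a median depth of 2505 UMIs. In the intermediate class it was 41.3% of 1050 cells (38.3% to 44.4%), with 266 left out and a median of 2082 UMIs. Projection neurons, taken as the background, had 2.03% of 2267 cells (1.49% to 2.70%), with 332 left out and a median of 2650 UMIs. Whether free RNA, doublets or cells placed in the wrong cluster gave that background was not tested. In order of stage the apical share was 69.7%, 67.0%, 58.6%, 59.3%, 57.8%, 59.3% and 47.8%. The intermediate share was 64.3%, 58.2%, 22.4%, 16.9%, 37.4%, 16.7% and 41.0%. It lay below the apical share in all 7 samples, and the E10.5 value rests on 28 cells. Without cluster 12 the apical share was 65.3% of 2588 cells, and 71.3%, 87.5% and 91.3% at E15.5, E16.5 and E18.5, the last ones from 24 and 23 cells. Unthinned, the shares were 71.3%, 43.6% and 4.62% over all cells of the 3 classes. By cluster the thinned share was 94.6% in cluster 10, 90.6% in cluster 3, 90.3% in cluster 7, 71.4% in cluster 6, 38.9% in cluster 12, 27.5% in cluster 1, 8.90% in cluster 4 and 4.25% in cluster 0.

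The apical and intermediate classes were then compared gene by gene, with counts summed per class and sample and the sample as a block, in edgeR's quasi-likelihood test adjusted over all tested genes. Of the 52 members, 15 were called higher in the apical class, where 15.7% of 8546 tested genes were called in that direction, and none was called higher in the intermediate class, where 13.7% of tested genes were. At an unadjusted p under 0.05, 28 were higher in the apical class, as were 1814 of 8546 tested genes. None was higher in the intermediate class at that limit, where 1572 tested genes were. DESeq2 called 15 higher in the apical class, of which 12 were also edgeR calls, and none higher in the intermediate class. The log2 difference, apical minus intermediate, was positive for 48 members, with a median of 0.50 against 0.03 over all tested genes. By level, the number of members higher in the intermediate class was 47, 34, 1, 3, 9, 0 and 18 in order of stage. Ckap2 and Tmpo, a protein of the nuclear lamina, were higher in the apical class in 7 of 7 samples, and no other member was.

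The count and its direction moved with the clusters that entered. Without cluster 12, 30 members were higher in the apical class, where 14.6% of tested genes were. Clusters 4 and 7 differ in these genes themselves (median fold 27.2, above), so comparisons with either alone describe that split, and their counts test nothing about the class. Against cluster 4 alone 50 were higher in the apical class (19.3% of tested genes), and against cluster 7 alone, with 4 samples, 44 were higher in cluster 7 (9.14%) and none in the apical class. Without cluster 10, 9 were higher in the intermediate class (14.2%) and none in the apical class. In the planned marker classes, cells set by a minimum of marker UMIs, 9 members were called higher in the apical cells, where 0.795% of 8432 tested genes were. They held 4 of the 15. Only 107 intermediate cells met that rule, and the fit held 4 sums, from the 2 samples with at least 20 of these cells. When cells were assigned by a majority of identity marker UMIs, with no cluster label and no cell cycle gene, 43 members were higher in the 2696 apical cells than in the 915 intermediate cells, where 15.2% of tested genes were, with a median of 1.01. Of these cells, 2331 apical and 696 intermediate ones lay in the clusters of their class. The part of the cells from other clusters in the count was not tested. The apical and intermediate cells included 521 and 218 within 1 UMI of a limit of that rule, which was added after seeing the data. Without E10.5 the count of members higher in the apical class was 33 (1319 of 8377 tested genes). It was 25 without E12.5 (1016 of 7796). Without E14.5 replicate 1 it was 4 (844 of 7783) and without E14.5 replicate 2 it was 7 (1155 of 9089). It was 9 without E16.5 (1275 of 8986).

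Of the 5 members that form or switch the Cdk1 kinase, 2 were called higher in the apical class, against the 15.7% of all tested genes, and the other 3 were above 0 and not called. Cdk1 had 195, 233, 272, 229, 204, 275 and 219 CPM in the apical class and 214, 236, 126, 77.8, 156, 38.0 and 186 CPM in the intermediate class in order of stage. The apical levels lay close together, while the intermediate levels were similar to them at E10.5 and E12.5 and lower later. Its log2 difference was 0.63 (SE 0.217, edgeR adjusted p = 0.0371). Cks2, a docking subunit like Cks1b, differed by 0.70 (SE 0.22, edgeR adjusted p = 0.0218). The cyclin B2 gene Ccnb2 had 0.48 (adjusted p = 0.142), Cks1b 0.35 (adjusted p = 0.222) and the phosphatase gene Cdc25c, which activates Cdk1, 0.55 (adjusted p = 0.123), all from edgeR and not called.

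Among the 3 genes that act with the anaphase-promoting complex or are its substrates, Cdc20 was called, against 15.7% of all tested genes. It had 203, 226, 219, 205, 302, 202 and 167 CPM in the apical class and 294, 232, 117, 47.5, 83.4, 76.1 and 106 CPM in the intermediate class. The intermediate class was higher at E10.5 and E12.5 and lower in the other 5 samples, below every apical sample there. The difference was 0.73 on the log2 scale (SE 0.24, edgeR adjusted p = 0.0291). Ube2c had 0.48 (adjusted p = 0.131) and Cdca3, a trigger of entry into mitosis, 0.59 (edgeR adjusted p = 0.0547).

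Of the 4 genes of the aurora kinases and the chromosomal passenger complex, the subunits Birc5 (survivin) and Cdca8 (borealin) were called. Over all tested genes the share called was 15.7%. Birc5 had 281, 289, 231, 185, 205, 213 and 237 CPM in the apical class and 286, 265, 99.1, 86.4, 164, 28.5 and 124 CPM in the intermediate class. The classes were level at E10.5, and every later sample was higher in the apical class. The log2 difference was 0.66 (edgeR adjusted p = 0.0172), and that of Cdca8 was 0.83 (edgeR adjusted p = 0.00429). Aurkb, the kinase of the same complex, had 0.77 with a wider error (SE 0.293, edgeR adjusted p = 0.0547), and Aurka 0.40 (adjusted p = 0.368).

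Of the 13 genes of spindle assembly and microtubules, Ckap2 and Tubb4b were called, near the 15.7% of all tested genes. Their differences were the largest among the 52. Ckap2 had 129, 211, 206, 244, 346, 308 and 303 CPM in the apical class and 103, 159, 84.9, 73.5, 136, 114 and 168 CPM in the intermediate class, higher in the apical class in every sample. Its log2 difference was 1.02 (SE 0.165, edgeR adjusted p = 1.29e-04). Tubb4b had 150, 88.2, 148, 291, 217, 352 and 200 CPM in the apical class and 151, 67.6, 86.1, 134, 72.3, 38.0 and 115 CPM in the intermediate class. The classes were level at E10.5 and apart from E14.5 on, with a difference of 0.94 (SE 0.213, edgeR adjusted p = 0.00269). Tpx2, which activates Aurka on the spindle, had 0.52 (adjusted p = 0.0834), Hmmr, a spindle and hyaluronan receptor protein, 0.12 (adjusted p = 0.753), and Gtse1 was below 0 at -0.16 (adjusted p = 0.733).

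Of the 5 mitotic kinesins, Kif23, which bundles microtubules in the dividing midzone, and Kif11, which pushes the spindle poles apart, were called at 0.85 (edgeR adjusted p = 0.0362) and 0.65 (adjusted p = 0.0103). This count and those of the centromere and checkpoint genes stand beside the 15.7% of all tested genes. Of the 5 genes of the centromere and kinetochore, Cenpf was called. It had 824, 946, 806, 772, 1438, 1570 and 1111 CPM in the apical class and 1198, 979, 341, 203, 823, 504 and 937 CPM in the intermediate class. The intermediate class was higher at E10.5 and E12.5 and lower in the later 5 samples, with a difference of 0.69 (SE 0.218, edgeR adjusted p = 0.023). Cenpa, the centromeric histone, had 0.67 (adjusted p = 0.0673). The checkpoint kinase gene Ttk was called at 0.70 (edgeR adjusted p = 0.0259), and its partner Bub1 was not, at 0.43 (adjusted p = 0.117).

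Of the 9 genes of chromosome structure, the condensin subunit Smc4 and Hmgb2 were called, at 0.70 (edgeR adjusted p = 0.0086) and 0.56 (adjusted p = 0.0475). This count and those of the nuclear envelope and cytokinesis genes stand beside the 15.7% of all tested genes. Mki67 had 774, 755, 771, 915, 1288, 1387 and 1017 CPM in the apical class and 1111, 834, 333, 350, 1117, 295 and 813 CPM in the intermediate class, with a difference of 0.58 (SE 0.227, edgeR adjusted p = 0.0612). Top2a had 1346, 1577, 1295, 1058, 1503, 1728 and 1641 CPM in the apical class and 2126, 1656, 555, 298, 1390, 514 and 1370 CPM in the intermediate class, with 0.56 (SE 0.23, edgeR adjusted p = 0.0745). For both of these markers of dividing cells the classes overlapped, with the intermediate class above the apical class at E10.5 and E12.5. Anp32e and Cbx5 were below 0, at -0.08 and -0.15, and Ctcf was at 0.04. Of the 3 genes of the nuclear envelope, Tmpo (0.51, edgeR adjusted p = 0.0236) and Lbr, the lamin B receptor (0.59, adjusted p = 0.0297), were called. The cytokinesis genes Anln and Ect2 were not, at 0.47 and 0.74 (edgeR adjusted p = 0.267 and 0.0582).

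**Figure D4:**
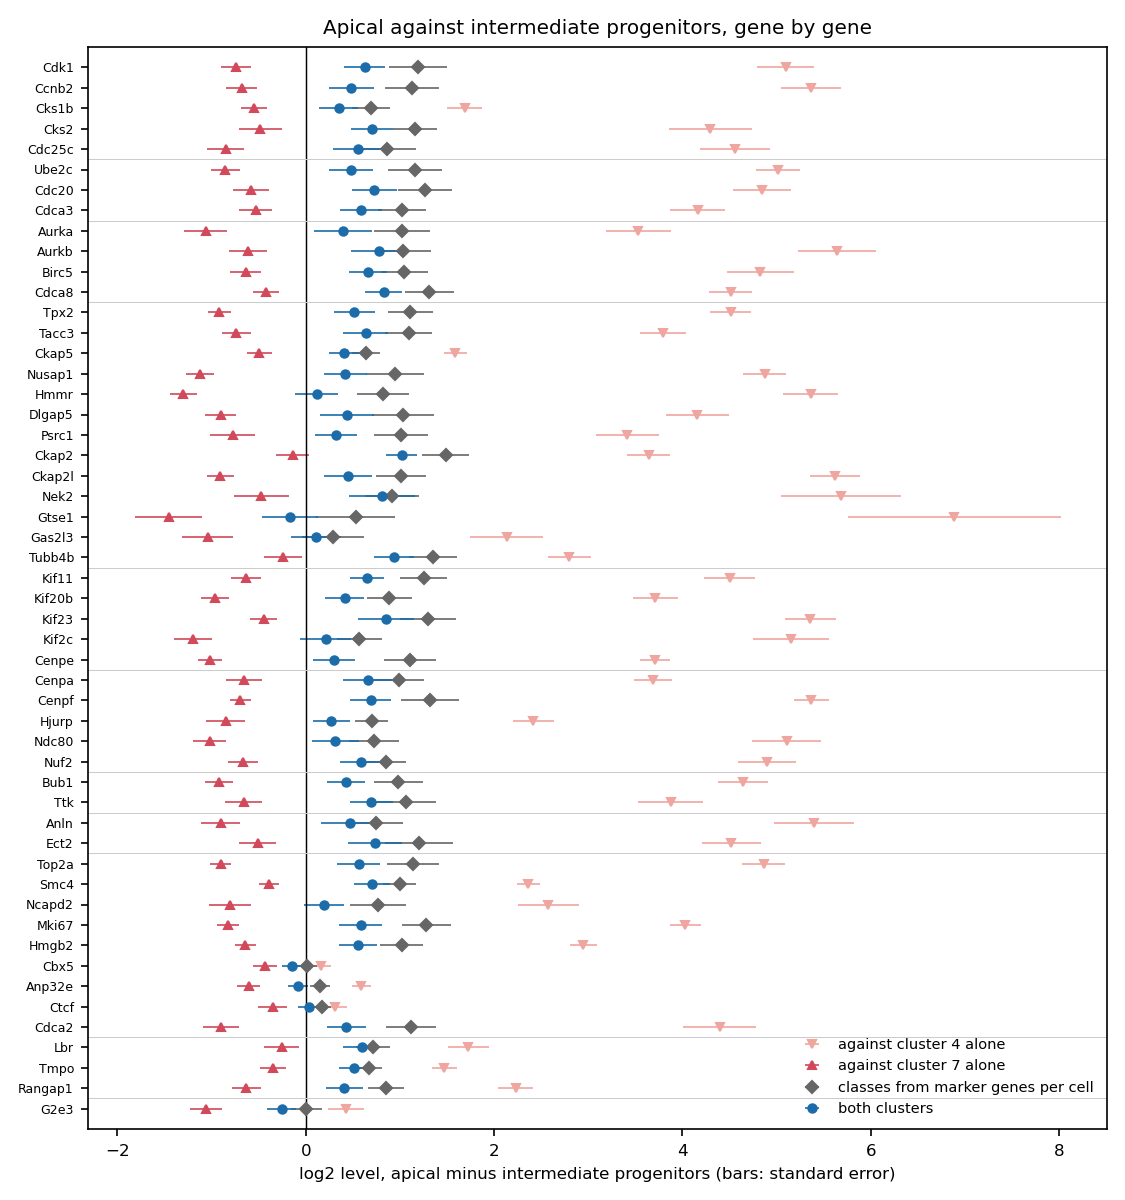
Log2 difference of each of the 52 genes, apical minus intermediate, with bars for the standard error, for both intermediate clusters together (circles), cluster 4 alone, cluster 7 alone and the marker majority classes (diamonds), with thin lines between roles. Against cluster 7 alone every gene lies left of 0, and among the circles Ckap2 at 1.02 and Tubb4b at 0.94 lie farthest right and G2e3 at -0.26 farthest left.

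With cells assigned by marker majority, the differences of the same genes were 1.48 for Ckap2, 1.35 for Tubb4b, 1.32 for Cenpf, 1.28 for Mki67, 1.27 for Cdc20, 1.20 for Cdk1, 1.16 for Ube2c, 1.14 for Top2a and 1.02 for Hmgb2. All 15 called members were among the 43 called there. The 9 not called were G2e3, Cbx5, Anp32e, Ctcf, Gas2l3, Gtse1, Kif2c, Anln and Ncapd2.

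Genes of the same processes outside the 52 were given from lists made with earlier results known. Of 43 S phase genes, 18 were called higher in the apical class and none in the intermediate class, with a median of 0.48, against the 15.7% and 13.7% of all tested genes. Uhrf1, which maintains DNA methylation at replication, had 1.21, the licensing inhibitor Gmnn 1.11, Cdca7 1.10 and the single-strand DNA binding subunit Rpa2 0.996 (edgeR adjusted p = 0.000825, 8.46e-05, 0.00115 and 0.00214). Of 63 other tested G2 and M genes, 17 were called higher in the apical class, with a median of 0.53, among them Cenpm at 1.05, Prc1, which bundles the spindle midzone, at 0.97, Fam64a at 0.95 and Knstrn at 0.88. The phosphatase gene Cdc25a, which acts earlier in the cycle too, was the only one called higher in the intermediate class, at -0.57 (edgeR adjusted p = 0.0252). Without cluster 12 the counts higher in the apical class were 16 of 43 and 34 of 63, against the 14.6% given above.

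Within the apical class, few members passed a test of change with stage. A slope on embryonic day, in log2 units per day, was called above 0 for 2 members, where 6.39% of 8392 tested genes rose, and below 0 for 1, where 2.92% fell. At an unadjusted p under 0.05, 4 were above and 6 below 0, where 1205 and 933 of 8392 tested genes were. The median slope was 0.02 against 0.00 over all tested genes. Gas2l3 had 10.9, 28.7, 55.2, 44.2, 75.9, 73.4 and 54.4 CPM. It was lowest at E10.5 and next lowest at E12.5, with a slope of 0.32 (SE 0.0759, edgeR adjusted p = 0.0218). Ckap2, whose levels are given above, was also lowest at E10.5 and had a slope of 0.17 (SE 0.043, edgeR adjusted p = 0.0316). Cks1b fell, with 390, 437, 383, 263, 235, 264 and 176 CPM and a slope of -0.15 (SE 0.0414, edgeR adjusted p = 0.0373), highest at E10.5, E12.5 and E14.5 replicate 1 and lowest at E18.5.

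The slopes of the other members were not called, some as large as that of Cks1b. Mki67 had 0.10 (SE 0.0452, edgeR adjusted p = 0.192), Tubb4b 0.14 (edgeR adjusted p = 0.206), Cenpf 0.10, Hmgb2 0.08, Tpx2 0.05, Cks2 0.05, Top2a 0.04, Cdk1 0.03, Aurka 0.02 and Aurkb 0.02. Cenpa stood at 0.00, Cdc20 and Ube2c at -0.02, Ccnb2 at -0.03 and Birc5 at -0.05. Without cluster 12, 16 members rose, where 4.21% of tested genes did, among them Gas2l3 at 0.53, Ckap2 at 0.32, Cenpf and Hmmr at 0.29, Tubb4b at 0.28, Mki67 at 0.24, Top2a at 0.20 and Cdk1 at 0.18. Cluster 10 then makes up most of the class at the last 2 stages, as given above, and its part in those slopes was not tested. Without E10.5 or E16.5 no member rose, and without E10.5, E12.5, E15.5, E16.5 or E18.5 none fell. Of the 43 S phase genes 22 fell and none rose, with a median of -0.15, among them Cdc6 at -0.30, Wdr76 at -0.28, Dtl at -0.26 and Fen1 at -0.25. Without cluster 12, 15 S phase genes fell and 16 of the 63 other G2 and M genes rose. Of 63 other G2 and M genes 1 rose, Troap, and Cdc25a (-0.18) and Cenph (-0.13) fell.

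In the intermediate class, 50 members could be tested, since Nek2 and Gtse1 did not pass the filter on low counts. By edgeR and by DESeq2 none rose and 2 fell, with none rising at an unadjusted p under 0.05, and 0.708% of 5505 tested genes were called in each direction. The slope was below 0 for 47 of the 50, with a median of -0.15 against 0.00 over all tested genes. At an unadjusted p under 0.05, 22 members fell, where 377 of 5505 tested genes fell and 433 rose. Aurka had 151, 93.9, 61.3, 30.3, 38.9, 0 and 17.7 CPM, from 19, 107, 52, 7, 14, 0 and 2 UMIs. E10.5 and E12.5 were highest, and at E16.5 a count of 0 allows up to 28.5 CPM. Its slope was -0.45 (SE 0.10, edgeR adjusted p = 0.0373). Cdc25c had 143, 121, 63.7, 21.6, 50.02, 28.5 and 17.7 CPM and a slope of -0.40 (SE 0.0907, edgeR adjusted p = 0.0413). At E16.5 and E18.5 its levels are no more than 3 counts, which are 28.5 and 26.5 CPM there.

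The other members had slopes in the intermediate class that were not called. Aurkb had -0.30 (edgeR adjusted p = 0.277), Cdc20 -0.29, Cenpa -0.28, Birc5 -0.25, Ube2c and Cks1b -0.22, Ccnb2 and Cks2 -0.18, Tpx2 -0.16, Cdk1 -0.12, Top2a -0.11, Mki67 and Cenpf -0.07, Tubb4b -0.05 and Hmgb2 -0.04. Cluster 7's share of the class, given above, was also highest at E10.5 and E12.5. Within cluster 7, in 4 samples, the slopes of Aurka and Cdc25c were -0.04 (SE 0.126) and 0.01, and the median of 50 members was 0.05. Within cluster 4, where only 12 members passed the filter and neither of these did, the median was -0.01, and no member was called in either cluster alone. Without E18.5, 13 members fell (83 of 6083 tested genes), and without E16.5 it was 1 (28 of 6149). None fell without any of E10.5, E12.5, E14.5 replicate 1 or E15.5. Of 39 tested S phase genes none was called, with 2 below and 1 above 0 at an unadjusted p under 0.05. Of 51 other G2 and M genes the cyclin B1 gene Ccnb1 fell, at -0.36 (edgeR adjusted p = 0.0165).

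The difference of the 2 slopes, intermediate minus apical, was tested directly. It was called below 0 for 3 members, where 0.597% of 8546 tested genes were, and above 0 for none, where 0.211% were (none at an unadjusted p under 0.05 and none by DESeq2, which called 1 below 0). It was below 0 for 50 of 52 members, with a median of -0.19 against -0.00 over all tested genes. At an unadjusted p under 0.05, 31 members were below 0, where 518 of 8546 tested genes were below and 333 above 0. Aurka differed by -0.49 per day (SE 0.109, edgeR adjusted p = 0.0343) and had 72.3, 77.7, 74.4, 98.8, 85.1, 128 and 61.0 CPM in the apical class, highest at E16.5 and lowest at E18.5. Cdc25c differed by -0.44 (SE 0.0896, edgeR adjusted p = 0.0189), with 74.1, 115, 111, 96.2, 107, 91.7 and 77.5 CPM in the apical class. Hmmr differed by -0.29 (SE 0.0653, edgeR adjusted p = 0.0383), with 256, 239, 250, 192, 355, 382 and 368 CPM in the apical class and 651, 319, 167, 121, 300, 105 and 283 CPM in the intermediate class. Hmmr was higher in the intermediate class at E10.5 and E12.5 only.

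None of the other members passed the test of this difference. Aurkb had -0.34 (edgeR adjusted p = 0.278), Cdc20 and Cenpa -0.31 (both 0.091), Cks2 -0.25, Tubb4b and Ube2c -0.24, Tpx2 -0.23, Birc5 and Mki67 -0.19, Cenpf, Ccnb2 and Top2a -0.18, Cdk1 -0.16, Hmgb2 -0.11 and Cks1b -0.09. Without cluster 12, 35 members differed, the 3 among them, where 1.66% of tested genes did. Leaving out whole clusters of the intermediate class moved the 3 differences. Without cluster 4, in 8 sums, they were -0.04 for Aurka, -0.05 for Cdc25c and -0.03 for Hmmr. Without cluster 7, in 12 sums, they were -0.60 (SE 0.351), -0.91 (SE 0.46) and -0.99 (SE 0.351), with edgeR adjusted p = 0.704, 0.583 and 0.245, so none of the 3 was called in either. By marker majority 5 members differed, where 0.690% did, and these were Cdc20 (-0.45), Cdc25c (-0.49), Cenpe (-0.34), Ckap2 (-0.38) and Ndc80 (-0.35), so that of the 3 only Cdc25c passed in both. Without E18.5 the count was 26 (100 of 8250 tested genes). It was 1 without E15.5 (29 of 8620) or E16.5 (41 of 8986), and none differed without E10.5 or E12.5. None of 43 S phase genes was called, with a median of 0.06. Of 63 other G2 and M genes Fam64a (-0.43), Pttg1 (securin, -0.38) and Ccnb1 (-0.35) were called.

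**Figure D5:**
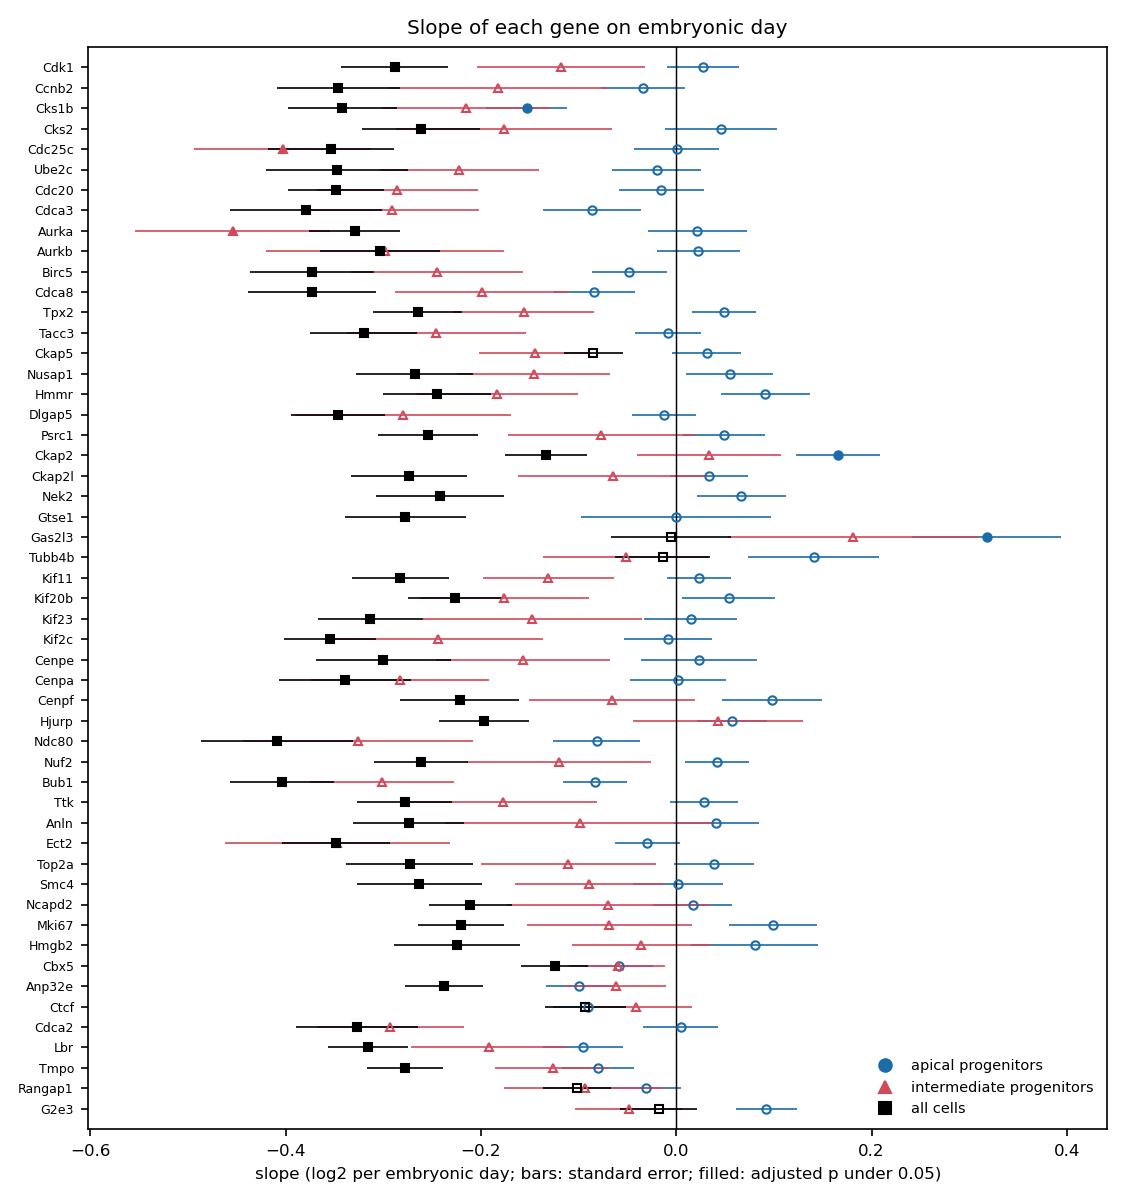
Slope of each of the 52 genes on embryonic day (log2 per day) with its standard error in the apical class, the intermediate class and all cells, filled where edgeR's adjusted p was under 0.05. Slopes over all cells lie to the left for nearly every gene, apical slopes lie near 0, and Gas2l3 stands farthest right at 0.32 in the apical class.

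Over all cells of a sample the 52 genes fell as the tissue aged. They made up 1.60%, 1.42%, 0.867%, 0.575%, 0.605%, 0.596% and 0.512% of UMIs in order of stage. From such sums alone, fewer dividing cells and less RNA per cell cannot be told apart, and the part of either was not tested. In order of stage, the apical class held 684 of 1165, 1204 of 2668, 1015 of 3232, 97 of 507, 150 of 1014, 60 of 386 and 193 of 1276 cells. The intermediate class held 33, 547, 471, 72, 116, 31 and 46 of the same cells. The mitochondrial share given above was highest at the 3 last stages and lowest at E14.5. A fall was called for 46 of the 52 members, where 12.4% of 12479 tested genes fell, and a rise for none, where 12.2% rose (none at an unadjusted p under 0.05 and none by DESeq2). The median slope was -0.28 against -0.00 over all tested genes. Mki67 had 688, 538, 319, 239, 330, 274 and 212 CPM, highest at E10.5 and lowest at E18.5, with a slope of -0.22 (SE 0.0444, edgeR adjusted p = 0.00954). Top2a had 1203, 1104, 540, 260, 392, 360 and 340 CPM, with E10.5 and E12.5 above all later samples and a slope of -0.27 (edgeR adjusted p = 0.0171).

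The steepest falls over all cells were those of Ndc80 at -0.41 (edgeR adjusted p = 0.00768), Bub1 at -0.40 (0.00313) and Cdca3 at -0.38 (0.0101). Birc5 and Cdca8 had -0.37, and Kif2c, a kinesin that takes microtubules apart, Cdc25c, Ect2, Cdc20, Ube2c, Dlgap5 and Ccnb2 had -0.35. Further falls were -0.34 for Cks1b and Cenpa, -0.33 for Aurka, -0.30 for Aurkb, -0.29 for Cdk1, -0.26 for Tpx2 and Cks2, and -0.22 for Cenpf and Hmgb2. The 6 members not called were Tubb4b and Gas2l3 (both -0.01), G2e3 (-0.02), Ckap5 (-0.08), Ctcf (-0.09) and Rangap1 (-0.10). Of these, Ctcf, G2e3, Tubb4b and Rangap1 also had the levels in projection neurons closest to those of the apical class, apart from Cbx5, which fell at -0.12 (edgeR adjusted p = 0.0286). Without E10.5, 30 members fell, where 667 of 12226 tested genes did. All 43 S phase genes fell, with a median of -0.32, led by Dtl at -0.50, Gmnn at -0.48, Hells at -0.44 and Uhrf1 at -0.42. Of 64 other G2 and M genes 57 fell, led by Spc24 and Cenpk at -0.41, Sgol1 at -0.39 and Plk4 at -0.38.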

How the data were processed

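Per the labels' protocols, dorsal forebrain was dissociated with papain and cells were captured with Drop-seq. Drop-seq tools 3.1, the build mm10 and Seurat 3.1.5 are listed in the submitters' processing notes. The authors deposited counts, the whole UMIs of each gene in each cell, with a library name and 1 of 19 cluster numbers per cell. The aligner, annotation and counted strand: not given in the sources used here. The fewest genes in a deposited cell were 501. Libraries were matched to samples by name. 1 library of 1303 cells, which no label lists by its exact name, was assigned to E14.5 replicate 1 by inference, and the E16.5 label lists a library that no cell carries. 4 barcodes occurred in more than 1 library (13 cells), and 13 cells with over 2% haemoglobin UMIs were left out.

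The members and lists were chosen with earlier results of these data known. A cluster took the name of the marker list that had most of its genes (3 or more) raised 2-fold over the remaining cells, unless another list had more among the 10 leading genes. Counts were summed per class and sample with at least 20 cells and tested in R 4.3.3 with edgeR version 4.0.16 (filterByExpr, TMM, glmQLFTest, two-sided, Benjamini-Hochberg over all tested genes, threshold 0.05). Both classes come from the same sample, which was the block in the class comparison and the difference of slopes. CPM levels are over plain totals. Sums ranged from 105152 UMIs (intermediate, E16.5) to 2848705 UMIs (apical, E10.5). The main fit of each comparison, and not the alternatives, was run on simulated counts with known changes. Those counts held no sample effect and no change in cluster make-up, so how the fits handle these was not tested. Doublets were called with Scrublet per sample (98 cells, 0.955%, at an expected 5%) and left out only as an alternative, beside DESeq2 1.42.0 and the others in the closing section. Named with values were 16 members in every comparison, the called members up to 12 in each direction, up to 4 called genes in each direction of each list with a mean of at least 50 CPM, and the 3 members highest and lowest in neurons relative to apical cells. Other genes named, among them those of each role and of the marker majority classes, were chosen after their values were seen. Shares of cells carry exact Clopper-Pearson 95% intervals, and 3 counts set the upper limit for a gene without any. Promoter windows are from RefSeq GRCm38.p6, and exons from GENCODE vM21.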

Additional observations from a re-analysis of the deposited data

Results flagged for a closer look

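For 3 members the slope on embryonic day differed between the intermediate and the apical class by a test of the difference itself. The difference, intermediate minus apical in log2 units per day, was -0.49 for Aurka, -0.44 for Cdc25c and -0.29 for Hmmr (edgeR adjusted p = 0.0343, 0.0189 and 0.0383). In the intermediate class, Aurka had 0 UMIs at E16.5 and 2 at E18.5, and Cdc25c had no more than 3 counts in either. Each of the 3 members was higher in the intermediate than in the apical class at E10.5 and E12.5 and lower in the other 5 samples. Cluster 7 held 75.8% of the intermediate class at E10.5, 56.3% at E12.5 and 12.9% to 35.3% in the later samples. Without cluster 4 the differences were -0.04, -0.05 and -0.03, and without cluster 7 they were -0.60, -0.91 and -0.99 with wider errors, and none was called in either case. DESeq2 called 1 of the 3, and none was called with no replicate block, without E10.5 or without E12.5. The E10.5 value of the intermediate class rests on 33 cells.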

How the results depend on the processing

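Of 226 values of the main counts and shares under alternatives, 165 stayed close and 61 moved. Of 2594 values of single genes, 2227 kept their side of the threshold, 217 lost and 111 gained the call. The other 39 changed sign and were called in the main fit or the alternative. Sign changes of genes called in neither count among the 2227. For members higher in the apical class (15), the count was 37 without a filter on low counts, 3 with no replicate block (6666 genes tested), 8 with the E14.5 samples summed, 9 in the planned marker classes, 43 by marker majority, 35, 0 and 30 without clusters 1, 10 and 12, 50 against cluster 4 alone and 0 against cluster 7 alone. All tested genes called in that direction were 1769 of 18078 without the filter, 586 of 6666 with no block and 1172 of 9097 with E14.5 summed. Without cluster 1 they were 1273 of 8164. The count of members ranged from 4 (without E14.5 replicate 1) to 33 (without E10.5). Members higher in the intermediate class were 9 without cluster 10, 44 against cluster 7 alone and 0 without each sample.

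Members that rose in the apical class (2) were 1 in the planned marker classes, by marker majority and without clusters 3 or 10, 0 without clusters 1 or 6 and 16 without cluster 12, and 0 to 2 without each sample. Members that fell there (1) were 2 with DESeq2 and 0 without the unlisted library, in the planned marker classes and without clusters 1, 6 or 12, and 0 to 1 without each sample. Falls in the intermediate class (2) were 13 without the filter (132 of 14989 tested genes). They were 0 without clusters 4 or 7 (12 members tested without cluster 7), and 0 to 13 without each sample. Slopes lower in the intermediate class (3) were 1 with DESeq2 and 17 without the filter (105 of 18078 tested genes). They were 0 with no replicate block and without clusters 4 or 10, 5 by marker majority and 35 without cluster 12. Without each sample they were 0 to 26. Falls over all cells (46) ranged from 30 to 47 without each sample, where 667 of 12226 and 1690 of 12704 tested genes fell. Unthinned, the median share of cells with Mki67 or Top2a was 73.1% in the apical class (59.3% thinned) and 4.62% in projection neurons (2.07% thinned).

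Signs changed against cluster 7 alone for Mki67 (-0.82), Top2a (-0.90), Hmgb2 (-0.64), Cdk1 (-0.74), Ccnb2 (-0.68), Cks1b (-0.55), Cks2 (-0.48), Ube2c (-0.86), Cdc20 (-0.58), Aurka (-1.06), Aurkb (-0.61), Birc5 (-0.64), Cenpf (-0.69), Cenpa (-0.65), Tubb4b (-0.24), Tpx2 (-0.92), Ckap2 (-0.14), Kif23 (-0.45), Cdca8 (-0.42), Smc4 (-0.39), Ttk (-0.66), Kif11 (-0.64), Prc1 (-0.33), Fam64a (-0.46) and Knstrn (-0.36). They changed without cluster 10 for Cdk1 (-0.021), Cks2 (-0.078), Ube2c (-0.84), Cdc20 (-0.38), Aurka (-0.74), Cenpf (-0.32), Tubb4b (-0.023), Kif23 (-0.082), Kif11 (-0.066) and Fam64a (-0.0017). Cdc25a was at 1.34 in the planned marker classes. The slope of Cdc25c in the intermediate class was 0.012 without cluster 4, and the slope differences of Fam64a and Pttg1 were 0.21 and 0.083 without cluster 7. The sign changes listed, only those of genes called in the main fit or the alternative, come with which cells entered the sums. The planned marker classes left 107 intermediate cells, with at least 20 in only 2 samples. The intermediate slopes and the slope difference therefore could not be fitted there. Sums at E16.5 and E18.5 hold 31 and 46 intermediate cells, in which 3 counts are 28.5 and 26.5 CPM.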
